A study of Homo sapiens with 27 samples.

Results

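The snoRNA host genes are 10 long non-coding genes, GAS5, SNHG1, SNHG3, SNHG5, SNHG6, SNHG7, SNHG8, SNHG12, SNHG15 and SNHG17. They were found by name in each table of gene counts, where they made up 10 of 58233 rows, and in the peak lists by peaks over the gene or within 1 kb of it. The cells were HL-60, a line established from human promyelocytic leukaemia, and the data were 5 RNA tables and 13 peak lists. Total RNA and nascent RNA, which is RNA labelled while it is made and then captured, came from untreated cells. Further nascent RNA came from cells treated with DRB at 100 µM, with actinomycin D (ActD) at 0.8 µM, or with DMSO as vehicle. ChIP, the immunoprecipitation of chromatin, was done for H2A.Z, a variant of histone H2A, and for its acetylated form (acH2A.Z), under DMSO, DRB and ActD and in cells labelled siNTC and siMyc. RIP, the immunoprecipitation of RNA, was done in untreated cells for the same 2 forms and for the acetyltransferase Tip60 (gene KAT5). No time of treatment is given in the sources used here. There was no RNA table for siNTC or siMyc, so the level of MYC RNA under siMyc was not checked. Each group was 1 library, so a ratio compares libraries and not conditions, and no p-value was computed. In bulk RNA, fewer cells that make a transcript and less of it per cell cannot be told apart.

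A snoRNA host gene carries small nucleolar RNAs (snoRNAs) in its introns. After splicing, the debranched intron is trimmed to the mature snoRNA, which guides the modification of ribosomal RNA: C/D snoRNAs guide ribose methylation and H/ACA snoRNAs guide pseudouridylation. The spliced exons of many such genes have no long reading frame, and their RNA is bound by ribosomes and then removed by nonsense-mediated decay, so that blocking translation raises it. Many of these genes start in a run of C and T, the 5′ terminal oligopyrimidine tract that they share with ribosomal protein genes.

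The 10 genes ranged in length from 1062 bp for SNHG8 on chromosome 4 to 14741 bp for SNHG17 on chromosome 20, in the RefSeq annotation of GRCh38.p14. The annotation placed 38 snoRNAs inside them, 22 named as C/D and 14 as H/ACA. GAS5, at chr1:173863901-173869045, held 11, and SNHG1, at chr11:62851978-62855885, held 9. SNHG6, SNHG8 and SNHG15 held 1 each. The remaining genes held between 2 and 5. Of the 10 genes, 8 lie within 1 kb of another annotated gene. SNHG3 overlapped the protein-coding gene RCC1 over 4850 bp, SNHG6 lay wholly inside MCMDC2, GAS5 overlapped ZBTB37 over 964 bp, and SNHG1 began 223 bp from SLC3A2.

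RefSeq promoter sequences, each 250 bases before to 50 bases after a start site, were found for 8 of the 10 genes. A set of 5 is printed here 5′ to 3′ on the strand of the gene, since the acH2A.Z peaks described further on lay over these start sites. SNHG7, SNHG8 and SNHG17 had the most extreme ratios of RNA under the inhibitors, SNHG5 had nearly the same acH2A.Z tag count in DMSO, DRB and ActD, and SNHG12 had the longest run of C and T. Capitals mark the longest run of C and T that began within 20 bases of the start site.
SNHG5: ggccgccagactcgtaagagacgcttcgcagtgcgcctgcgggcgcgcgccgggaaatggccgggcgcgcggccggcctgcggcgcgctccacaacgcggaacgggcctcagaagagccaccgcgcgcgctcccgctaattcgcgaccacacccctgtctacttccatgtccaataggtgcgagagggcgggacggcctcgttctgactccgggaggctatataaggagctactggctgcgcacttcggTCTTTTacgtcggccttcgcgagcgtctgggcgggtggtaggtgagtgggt
SNHG7: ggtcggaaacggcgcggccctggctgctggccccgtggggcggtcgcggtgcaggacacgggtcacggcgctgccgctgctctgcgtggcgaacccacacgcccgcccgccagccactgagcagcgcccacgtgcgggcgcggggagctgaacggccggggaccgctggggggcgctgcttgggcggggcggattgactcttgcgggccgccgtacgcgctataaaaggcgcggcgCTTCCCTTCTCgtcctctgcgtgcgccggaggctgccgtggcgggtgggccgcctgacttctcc
SNHG8: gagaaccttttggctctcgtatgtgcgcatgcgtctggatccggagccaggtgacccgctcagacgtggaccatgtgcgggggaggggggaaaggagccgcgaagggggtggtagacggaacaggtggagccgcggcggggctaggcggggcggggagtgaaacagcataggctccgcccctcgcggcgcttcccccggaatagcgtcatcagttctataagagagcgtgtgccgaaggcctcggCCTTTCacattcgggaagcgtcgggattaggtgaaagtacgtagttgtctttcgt
SNHG12: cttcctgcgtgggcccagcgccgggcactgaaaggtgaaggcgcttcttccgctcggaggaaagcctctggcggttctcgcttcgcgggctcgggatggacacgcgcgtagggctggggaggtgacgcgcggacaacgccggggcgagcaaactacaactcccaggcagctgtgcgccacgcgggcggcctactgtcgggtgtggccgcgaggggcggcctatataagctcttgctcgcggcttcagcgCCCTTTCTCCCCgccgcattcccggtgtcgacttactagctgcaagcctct
SNHG17: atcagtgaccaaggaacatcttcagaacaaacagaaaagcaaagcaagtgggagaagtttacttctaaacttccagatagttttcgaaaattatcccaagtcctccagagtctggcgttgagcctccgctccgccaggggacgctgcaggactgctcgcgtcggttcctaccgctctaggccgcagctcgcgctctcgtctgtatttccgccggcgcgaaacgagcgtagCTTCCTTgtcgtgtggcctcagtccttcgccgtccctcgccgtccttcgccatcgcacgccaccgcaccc
The windows are chr6:85678684-85678983 for SNHG5, chr9:136728135-136728434 for SNHG7, chr4:118278512-118278811 for SNHG8, chr1:28581824-28582123 for SNHG12 and chr20:38435279-38435578 for SNHG17. SNHG8 is on the plus strand and the other 4 are on the minus strand. The run was 12 bases long at SNHG12, where it began at base -1. At SNHG7 it was 11 bases long, began at base -14 and ended before the start site used. Of all 35116 RefSeq promoters of this length, 4.29% held a run at least as long as that of SNHG12 and 6.13% one as long as that of SNHG7. At SNHG5 and SNHG8 the run was 6 bases, a length reached by 40.5% of promoters. At SNHG17 it was 7 bases, began at base -20 and also ended before the start site. Over the 8 genes the median run was 6.5 bases, beside 5 over all promoters. The E-box CACGTG, the same on both strands and the usual binding motif of MYC and its partners, was in 1 of the 8 windows, that of SNHG7 at base -122, and in 7.26% of all promoters. TATAAA, searched on both strands, was in 2 of the 8 and in 11.5% of all. The GC box GGGCGG was in 5 of the 8 and in 45% of all, and CCAAT in 2 of the 8 and in 34.6%.

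Levels are given in CPM, computed from the deposited expected counts over all genes but the mitochondrially encoded ones, named MT-. The tables held between 4807213 and 25026691 such counts. Mitochondrial genes took 0.560% and 0.649% of counts in the untreated libraries but 45.9% to 66.5% in the DMSO, DRB and ActD libraries, so those 2 sets of libraries stand apart. Of 7 promyelocyte markers, 5 or 6 reached 1 CPM in each RNA library, with sums between 983 and 2890 CPM, and MPO was the most abundant. ELANE was at 0 in 4 of the 5 libraries. Of 8 markers of other lineages none passed 1 CPM except COL1A1 in untreated nascent RNA, at 1.64 CPM.

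In untreated cells all 10 host genes were expressed. Per kilobase of effective length, the part of a transcript from which fragments can come, SNHG1 was highest in total RNA at 111 CPM per kilobase and SNHG15 lowest at 11.9. In untreated nascent RNA, SNHG8 was highest at 210 and SNHG15 again lowest at 16.4. In the DMSO library GAS5 led at 114 and SNHG8 was lowest at 23.8.

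Nascent and total RNA of untreated cells gave nearly the same levels of the spliced hosts. Only SNHG8 was at least 2-fold higher in nascent RNA, and none was 2-fold lower, beside 9.49% and 17.8% of all 13968 genes that passed the filter. SNHG8 stood at 44.1 CPM in total and 96.4 CPM in nascent RNA, a log2 ratio of 1.11 with an exact 95% binomial interval of 0.99 to 1.26. The intervals throughout are of the ratio of counts and cover counting error only. The median log2 ratio of the 10 genes was 0.17, beside -0.34 over all genes. SNHG17 was the lowest at -0.62. Per effective length, an alternative added after the data were seen, no gene was 2-fold higher.

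The snoRNAs inside these genes differed far more between the same pair of libraries. Of the 38 snoRNAs, 25 could be matched to rows of the gene tables by gene ID, and only these were read. Among them 19, from 8 hosts, had at least 20 counts over the 5 RNA libraries, and 16 of the 19 were at least 2-fold higher in nascent than in total RNA, with a median log2 ratio of 2.07. None was 2-fold lower, but a row of SNORA17B with 16.6 counts in total and 0 in nascent RNA fell under the limit. Others met the limit almost only through untreated nascent RNA, such as SNORD25 with 1.32 counts in total and 146 in nascent RNA. The count of 16 is thus partly set by the limit. The summed level of the 19 was 339 CPM in total and 1866 CPM in nascent RNA. Over all 847 rows of snoRNAs the sums were close, 10460 and 10604 CPM. SNORA24, an H/ACA snoRNA in SNHG8, went from 82.4 to 953 CPM. SNORA73B and SNORA73A, the snoRNAs of SNHG3 that act in pre-rRNA cleavage, went from 64.5 to 337 CPM and from 67.2 to 173 CPM. SNORD22 of SNHG1 went from 55.9 to 126 CPM and SNORD87 of SNHG6 from 8.88 to 57.2 CPM. SNORA9 of SNHG15 was lower, at 5.62 and 4.23 CPM, with an interval of the log2 ratio from -0.86 to 0.04. Of GAS5 only SNORD79 and SNORD81 were matched, and of SNHG5 only SNORD50B, and these had no counts; the other snoRNAs of these hosts were not read. Reads in a snoRNA also lie in its host, and the deposited counts of both can be fractions of a read.

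In the libraries of the 3 treatments the same snoRNAs were nearly absent. The 19 summed to 21.2 CPM in DMSO, 17.8 in DRB and 8.74 in ActD, and 3, 4 and 3 of them had any count. SNORA24 made up most of that, with 17.8, 15.2 and 7.82 CPM. The vehicle library shows this as much as the inhibitor libraries do. Over all 847 rows of snoRNAs, 155 and 288 were above 0 in untreated total and nascent RNA, and 24, 29 and 16 in DMSO, DRB and ActD. The part of library preparation in this was not tested.

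**Figure D1:**
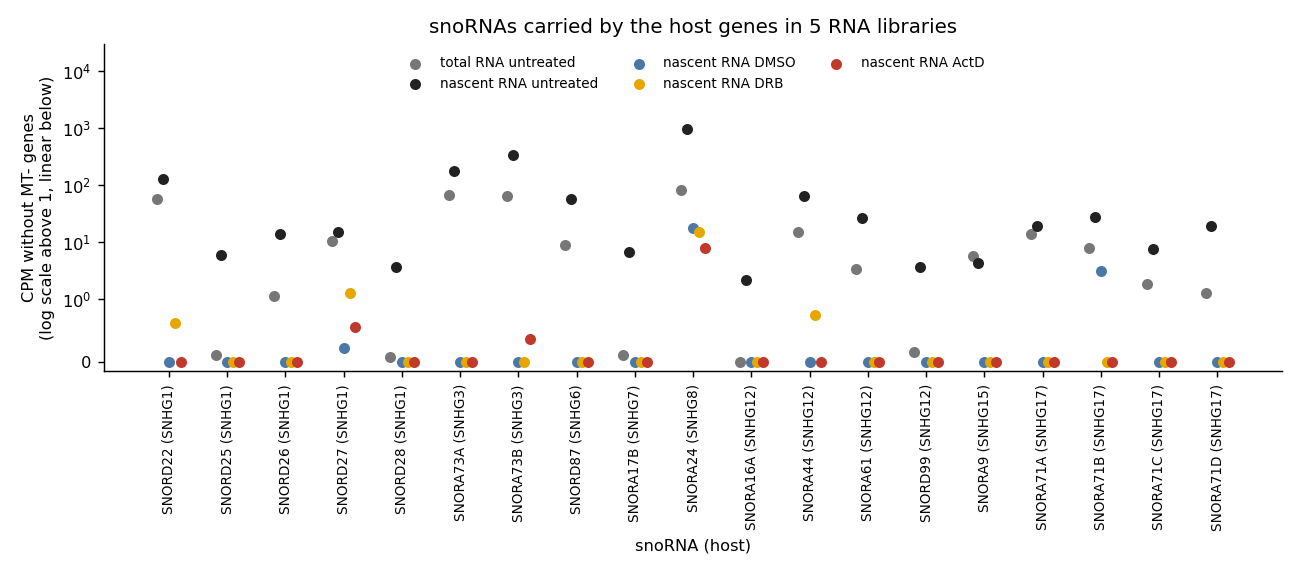
Level of 19 snoRNAs in 5 RNA libraries, in CPM without MT- genes, on a vertical axis that is logarithmic above 1 and linear below. Each point is 1 library and the host is given in brackets. Black points, untreated nascent RNA, lie above the grey points of total RNA except at SNORA9, and the coloured points of DMSO, DRB and ActD lie mostly at 0.

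Because of this gap, levels of the hosts in the DMSO library were also set beside untreated nascent RNA. SNHG8 was lower in DMSO, 10.6 against 96.4 CPM (log2 ratio -3.07, interval -3.51 to -2.86), and SNHG15 was higher, 44.6 against 18.3 CPM (1.24, 1.08 to 1.49). The other 8 were within 2-fold. Over all genes 14.7% were lower and 46.2% higher, and the median gene was at 0.87, against -0.39 for the hosts. Relative to the median gene, 7 of the 10 were at least 2-fold lower and none higher. Per effective length, 9 were higher and none lower, with the median gene at 2.37. The direction of this comparison therefore depends on the scale, and the ratios of the inhibitor libraries are taken below only against DMSO or against each other.

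DRB, a nucleoside analogue that inhibits the kinase releasing paused RNA polymerase II, was compared with DMSO in nascent RNA. There 4 hosts were at least 2-fold lower (SNHG7, SNHG15, SNHG17 and SNHG12) and 1 was higher (SNHG8), beside 47.0% and 15.6% of 12919 genes. The share of hosts that were lower was thus close to that of all genes. The hosts had a median log2 ratio of -0.46, and the median of all genes was -0.83.

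SNHG7, the host of SNORA17A and SNORA17B, was at 22.8 CPM in DMSO, 0.416 CPM in DRB and 52.8 CPM in ActD. It had 178 counts in DMSO and 2 in DRB, and the log2 ratio was -4.07 with an interval of the ratio of counts from -8.83 to -3.90. SNHG7 thus had the lowest DRB ratio of the 10, while its ActD level was above that of DMSO. SNHG15, an RNA known for its short half-life, was at 44.6 CPM in DMSO, 7.90 in DRB and 30.2 in ActD. Its DRB log2 ratio was -2.36 (-3.02 to -2.01). SNHG12, which carries 3 H/ACA snoRNAs and 1 C/D snoRNA, was at 38.3, 14.9 and 54.1 CPM, with a DRB log2 ratio of -1.31 (-1.77 to -0.998). These 3 genes, like GAS5, SNHG1, SNHG3 and SNHG5 by less against DMSO, were lower in DRB than in both other treatment libraries.

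SNHG8 was the only host at least 2-fold higher in DRB, with 10.6 CPM in DMSO and 29.8 in DRB, a log2 ratio of 1.40 (1.08 to 1.89). With CPM taken over all genes it was at 0.70, and per effective length at 0.98, both under 2-fold. SNHG6 was at 33.6 CPM in DMSO and 66.2 in DRB, a log2 ratio of 0.96 (0.74 to 1.22), just under 2-fold. MCMDC2, the gene that surrounds SNHG6, went from 0.513 to 20.8 CPM over the same 2 libraries, and its part in the SNHG6 value was not tested. GAS5, SNHG1, SNHG3 and SNHG5 had DRB log2 ratios between -0.51 and -0.31. Relative to the median gene these 4 values turn positive, between 0.32 and 0.52, and with CPM taken over all genes SNHG1, SNHG3 and SNHG5 are 2-fold lower, so their direction depends on the scale.

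**Figure D2:**
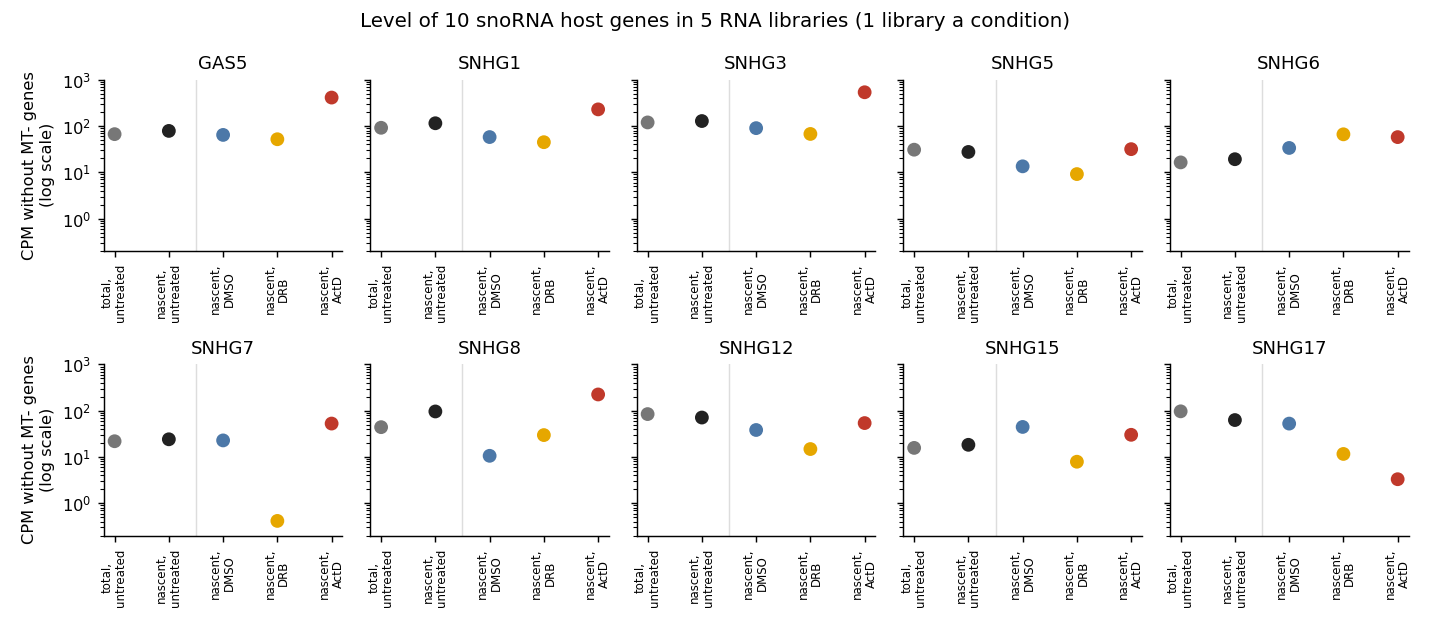
Level of the 10 host genes in CPM without MT- genes, on a logarithmic axis, with 1 point for each of 5 RNA libraries. Among DMSO, DRB and ActD, the highest point is in ActD for all hosts but SNHG6, SNHG15 and SNHG17. SNHG7 has a single low point in DRB at 0.416 CPM, and SNHG17 is lowest in ActD at 3.31 CPM.

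ActD, which intercalates into DNA and blocks elongation by RNA polymerases, gave a different picture in nascent RNA. Of the 10 hosts, 6 were at least 2-fold higher than in DMSO and 1 was lower, beside 19.0% and 50.7% of 12788 genes. The median log2 ratio was 1.17 for the hosts and -1.05 for all genes. Of the 10 hosts, 9 lay above the median gene. Both inhibitor comparisons use the same DMSO library.

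SNHG8 had the highest ActD ratio, with 10.6 CPM in DMSO and 225 in ActD, a log2 ratio of 4.28 (4.08 to 4.74) that was above that of 98.1% of genes. GAS5, whose RNA accumulates when growth stops and which can act as a decoy for the glucocorticoid receptor, was at 64.2 CPM in DMSO, 51.8 in DRB and 412 in ActD, and the ActD log2 ratio was 2.66 (2.54 to 2.82). SNHG3 was at 90, 67.4 and 536 CPM, with an ActD log2 ratio of 2.56 (2.46 to 2.70). SNHG1, the host of 8 C/D snoRNAs, was at 57.7, 44.7 and 229 CPM, with an ActD log2 ratio of 1.97 (1.83 to 2.15). In these 4 genes, as in SNHG5, SNHG7 and SNHG12, the ActD library was the highest of the 3 treatment libraries. SNHG8, GAS5, SNHG3 and SNHG1 were also 2-fold higher under each other scale tried.

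SNHG5, the host of SNORD50A and SNORD50B, was at 13.5 CPM in DMSO and 31.6 in ActD, a log2 ratio of 1.17 (0.87 to 1.60). The ActD log2 ratio of SNHG7 was 1.18 (0.94 to 1.49). These 2 calls rest on the scale, since with CPM over all genes of the table they were 0.82 and 0.83. Per effective length SNHG7 turned to -0.50, as its deposited effective length was 838 bases in DMSO and 1762 in ActD. SNHG6, SNHG12 and SNHG15 were within 2-fold, with ActD log2 ratios of 0.76, 0.49 and -0.55. Per effective length SNHG6 and SNHG12 turned to -0.20 and -0.97, and relative to the median gene SNHG15 turned to 0.50.

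SNHG17, which carries 4 SNORA71 snoRNAs, was the only host at least 2-fold lower in ActD than in DMSO. It was at 52.7 CPM in DMSO, 11.6 in DRB and 3.31 in ActD. The ActD log2 ratio was -3.64 (-4.76 to -3.31), from 411 and 18 counts, and the DRB log2 ratio was -2.09 (-2.61 to -1.77). It was the only host lower in ActD than in DRB by 2-fold, with a log2 ratio of -1.55 (-2.67 to -1.03).

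Set against DRB directly, 8 hosts were at least 2-fold higher in ActD and 1 lower, beside 34.2% and 36.3% of 10859 genes. The median log2 ratio was 2.07 for the hosts and -0.09 for all genes. SNHG7 had the largest ratio, 5.25 (5.12 to 10.04), from 287 and 2 counts. SNHG6 did not differ between the inhibitors beyond counting error, at -0.20 (-0.43 to 0.03).

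**Figure D3:**
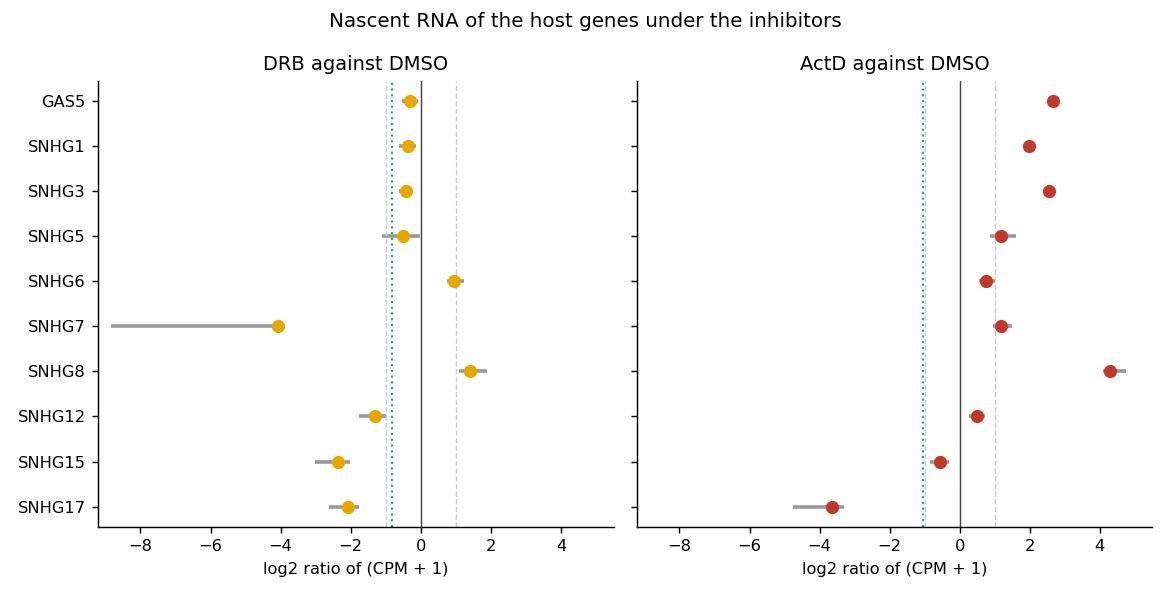
Log2 ratios of the host genes in nascent RNA, DRB (left) and ActD (right) against DMSO. Points are log2 ratios of CPM + 1, grey bars are exact 95% binomial intervals for the counts, dashed lines mark 2-fold and the dotted line is the median of all genes, at -0.83 and -1.05. In the ActD panel 9 of the 10 points lie to the right of the dotted line.

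Genes that overlap the hosts or lie within 1 kb of them were read in the same tables, picked by position after the host values were known. RCC1, the exchange factor of Ran, overlaps SNHG3 and was at 105 CPM in DMSO and 2.94 in ActD while SNHG3 went from 90 to 536. ZBTB37 overlaps GAS5 and was at 28.6 CPM in DMSO and 0.552 in ActD while GAS5 went from 64.2 to 412. GAS5-AS1, which overlaps GAS5 by 41 bp, was at 0 CPM in DMSO and 3.68 in ActD, from 20 counts. SLC3A2, an amino acid transporter subunit beside SNHG1, was higher in ActD like SNHG1, at 140 and 427 CPM. PRSS12, which lies 214 bp from SNHG8, was at 30.0 CPM in DMSO, 52.6 in DRB and 61.8 in ActD, so it was higher with SNHG8 but by less. TRNAU1AP, which overlaps SNHG12 by 8 bp, was at 7.44 CPM in DMSO and had no count in ActD. Whether the counting used strand is not given in the sources used here, so reads of overlapping genes may be shared.

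Other gene lists of the same pathway were summarised by the same measure. Of 38 protein-coding snoRNA hosts, most of them genes of the translation machinery, 16 were higher and 4 lower in ActD than in DMSO, with a median log2 ratio of 0.81, beside 19.0% higher and 50.7% lower among all genes. RPL10 and RPL3, proteins of the large ribosomal subunit, were highest at 2.37 and 1.87, and WDR43 and NAP1L4 lowest at -2.01 and -1.98. In DRB none of the 38 was higher and 4 were lower, beside 15.6% and 47.0% of all genes, and the median was 0.03, with PPAN lowest at -4.22. Of 17 other non-coding hosts 11 passed the filter, with 4 higher and 4 lower in ActD, beside the same 19.0% and 50.7%, and a median of 0.15. EPB41L4A-AS1 and DANCR were highest in ActD at 3.07 and 2.88 and C6orf48, the older name of SNHG32, lowest at -2.88.

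Genes for the proteins that act on these RNAs were counted in the same way. Of 14 snoRNP proteins and assembly factors that passed the filter, none was higher and 4 were lower in ActD, with a median log2 ratio of -0.64, beside 19.0% higher and 50.7% lower among all genes. FBL, the methyltransferase of C/D snoRNPs, was at -1.37, NUFIP1, an assembly factor, at -4.55, and NOP56, a C/D core protein and itself a snoRNA host, at 0.85. Of 10 nonsense-mediated decay factors none was higher and 3 were lower in ActD, beside the same shares of all genes, with a median of -0.51. SMG9 was lowest at -4.13 and UPF2 next at -1.999. In DRB none of the 10 was higher and 4 were lower, beside 15.6% and 47.0% of all genes, with a median of -0.43. SMG8 was lowest at -2.93 and UPF1, the central helicase of this decay, next at -2.88. SMG6 and UPF2 were highest at 0.55 and 0.10. All genes together had a median of -1.05 in ActD and -0.83 in DRB.

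Profiles over the 5 RNA libraries were compared with the mean profile of the hosts among 13061 genes, by the distance on the log2 scale of CPM + 1, centred on the mean of each gene. The profile spans the untreated and the treatment libraries, which stand apart. Genes with near profiles were DTX2P1-UPK3BP1-PMS2P11, ATF6B, DDX39B and ANGPTL6, at distances from 0.174 to 0.409. DDX39B, an RNA helicase of splicing and mRNA export, stood at 140 CPM in total RNA, 128 in untreated nascent RNA, 121 in DMSO, 61.8 in DRB and 255 in ActD. The hosts themselves lay between 0.620 for SNHG5 and 4.200 for SNHG17 from their own mean.

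Input DNA tables, made from chromatin of DMSO, DRB and ActD cells without immunoprecipitation, held between 0 and 28 counts for each host. They are too shallow to compare single genes.

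Acetylated H2A.Z is a mark of active promoters. It was listed at every host in the DMSO, DRB and siNTC ChIP lists, at 8 of 10 in ActD and at 7 of 10 in siMyc. SNHG7 and SNHG15 had no acH2A.Z peak over the gene or within 1 kb in ActD or siMyc, and SNHG17 had none in siMyc. Within 5 kb SNHG15 had a peak in both ActD and siMyc, so its absence there rests on the window. Among 11245 genes of at least 1 CPM in the DMSO nascent library, the shares with a peak over the gene or within 1 kb were 85.0% in DMSO, 90.1% in DRB, 81.7% in ActD, 86.8% in siNTC and 54.9% in siMyc. Over all 59661 RefSeq genes they were 27.6%, 34.2%, 30.0%, 28.6% and 18.7%. The host counts are thus near the shares of expressed genes. A gene without a peak in a list may still carry the mark, since each list is cut at the authors' threshold and the lists hold between 14528 and 31240 peaks.

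The peaks lay over the start sites. Of 8 hosts with a RefSeq start site, all 8 had it inside the acH2A.Z peak in DMSO and in DRB, 7 in ActD, 7 in siNTC and 3 in siMyc. Over 8798 expressed genes the shares were 76.0%, 83.9%, 63.0%, 80.4% and 17.7% in the same order of lists. Start sites inside a peak, and fewer of them in siMyc, were thus found over expressed genes at large. In siNTC the exception among the hosts was SNHG1, whose peak ended at -249 bp from the start. In siMyc the peaks of SNHG1, SNHG5 and SNHG12 lay wholly upstream, ending at -189, -828 and -260 bp. The start site used for SNHG12 lies inside the annotated gene, and its siMyc peak still overlaps that gene. Peak lists carry no strand, so a peak between SNHG1 and SLC3A2 belongs as much to one as to the other.

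In the DRB list the peaks reached less far into the hosts. From the start site downstream, the DMSO peaks reached 3015 bp at GAS5, 2639 at SNHG1, 1702 at SNHG3, 2797 at SNHG5, 1466 at SNHG7, 1610 at SNHG8, 1393 at SNHG12 and 1890 at SNHG17. In DRB the same reaches were 1129, 449, 504, 538, 175, 982, 323 and 437 bp. All 8 were shorter, with a median difference of -1372 bp. On the upstream side only 3 of the 8 were shorter, and the median difference was 36 bp. This measure was chosen after the peaks at the hosts had been seen.

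The same was measured over all expressed genes with a start site inside a peak in both lists. Downstream, 82.7% of 6456 genes had a shorter reach in DRB than in DMSO, and upstream 49.8% had. The median downstream difference was -416 bp for all genes and -1372 bp for the hosts. The one-sided shortening was thus found at most genes. Widths depend on the authors' threshold and on depth. Only SNHG5 could be compared among peaks in the upper part of both lists by score, and it was shorter in DRB there too.

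In ActD the downstream reach was 3169 bp at GAS5, 2337 at SNHG1, 2612 at SNHG3, 3874 at SNHG5, 1483 at SNHG12 and 1449 at SNHG17. At SNHG8 the peak was 9110 bp wide and reached 7571 bp past the start, which is beyond the end of SNHG8 and into PRSS12. Of 7 hosts with a peak in both lists 2 were shorter in ActD than in DMSO (SNHG1 and SNHG17), beside 40.5% of 5326 genes. The hosts differed by a median of 154 bp and all genes by 101.5 bp. Between siMyc and siNTC only 3 hosts could be compared, and 2 were shorter in siMyc, beside 62.6% of 1453 genes.

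**Figure D4:**
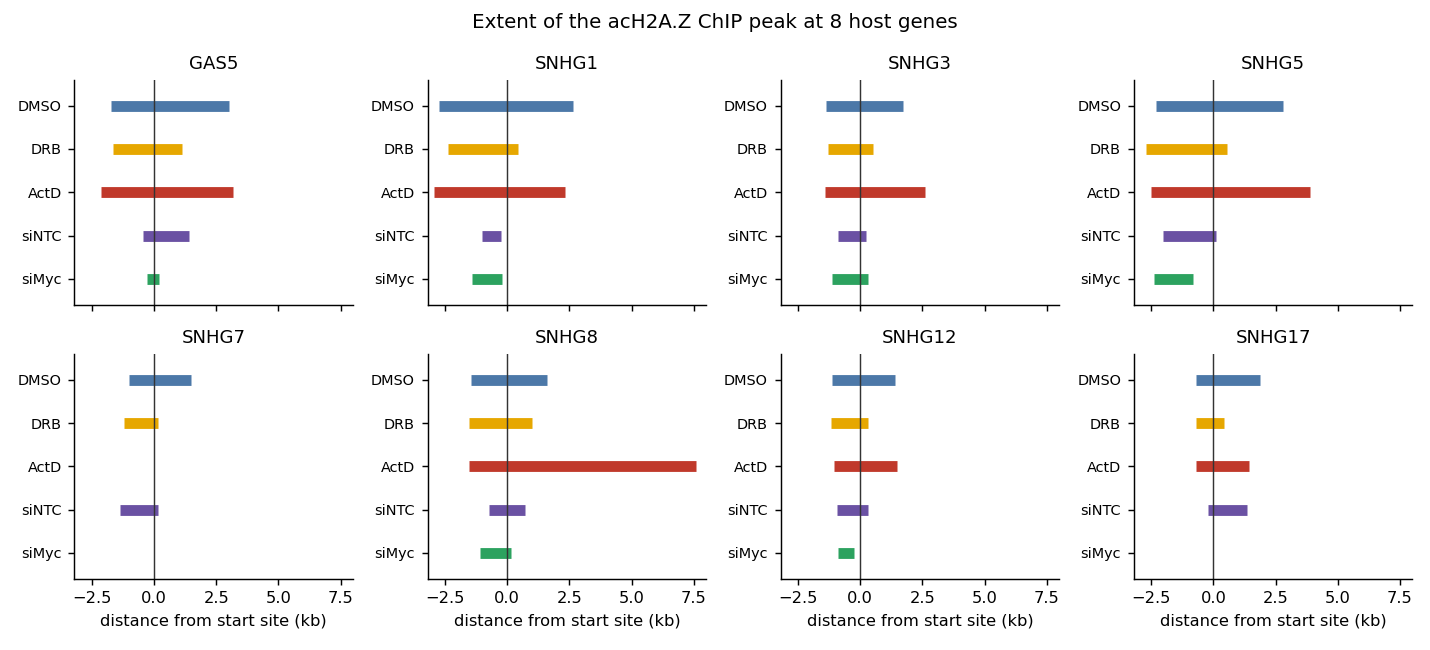
Extent of the acH2A.Z peak at 8 host genes with a RefSeq start site, in 5 ChIP lists. The horizontal axis is the distance from the start site in kb, positive in the direction of transcription, and each bar is 1 peak. DRB bars end nearer to the start than DMSO bars at all 8 genes, while their upstream ends lie close together.

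The deposited tag count of a peak, which the headers call normalized without giving its scale, varied among hosts by over 10-fold in each list. In DMSO it was 1975 at SNHG1, 1740 at SNHG6, 1610 at SNHG5, 908 at SNHG8, 718 at SNHG15, 693 at SNHG3, 676 at SNHG17, 610 at GAS5, 248 at SNHG12 and 171 at SNHG7. The median host peak stood above 82.1% of the peaks of that list.

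In the DRB list the tag count was 215 at SNHG1, 919 at SNHG6, 1700 at SNHG5, 394 at SNHG8, 125 at SNHG15, 251 at SNHG3, 111 at SNHG17, 498 at GAS5, 262 at SNHG12 and 91.9 at SNHG7. Of the 10, 8 were lower than in DMSO, with a median ratio of 0.481, and SNHG5 and SNHG12 were slightly higher. Among 9465 expressed genes 69.6% were lower, with a median ratio of 0.609. SNHG1 had the lowest ratio of the hosts at 0.109. In the ActD list the tag count was 462 at SNHG1, 938 at SNHG6, 1710 at SNHG5, 1732 at SNHG8, 800 at SNHG3, 174 at SNHG17, 560 at GAS5 and 45.7 at SNHG12. Of these 8, 5 were lower than in DMSO, beside 73.9% of 8837 genes, and the median ratio was 0.728 beside 0.650. SNHG8, which had the highest ActD ratio of nascent RNA, also had the highest ratio of acH2A.Z tag counts, 1.91. The tag count is that of the whole peak, which at SNHG8 was 3043 bp wide in DMSO and 9110 bp in ActD. In ActD that peak ran on over PRSS12, so the ratio is not of SNHG8 alone. SNHG17, lowest in nascent RNA, went from 676 to 174. SNHG1 went from 1975 to 462 while its nascent RNA went from 57.7 to 229 CPM, so the mark and the RNA did not move together at each gene.

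The siNTC and siMyc lists were made on different scales, since the control tags were scaled in acH2A.Z siMyc and the immunoprecipitated tags in acH2A.Z siNTC. Tag counts summed to 3986660 over the siNTC list and 355355 over the siMyc list. At the hosts the siNTC and siMyc tag counts were 242 and 9.76 at GAS5, 361 and 175 at SNHG6, 248 and 80.5 at SNHG5, 126 and 19.0 at SNHG12, and 84.6 and 43.7 at SNHG8. SNHG1 and SNHG3 were the exceptions, with 13.4 and 30.4 at SNHG1 and 52.9 and 73.5 at SNHG3. Of 7 hosts, 5 were lower in siMyc, with a median ratio of 0.483, beside 88.9% of 6020 genes and a median of 0.109. Relative to that median gene 6 of the 7 were higher and only GAS5, at a ratio of 0.0404, was lower, so the direction depends on the scale. SNHG7, SNHG15 and SNHG17, without a peak within 1 kb in siMyc, had 450, 109 and 144 in siNTC. SNHG7 had the highest siNTC tag count of the 10 but the lowest in DMSO and in DRB, at 171 and 91.9.

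**Figure D5:**
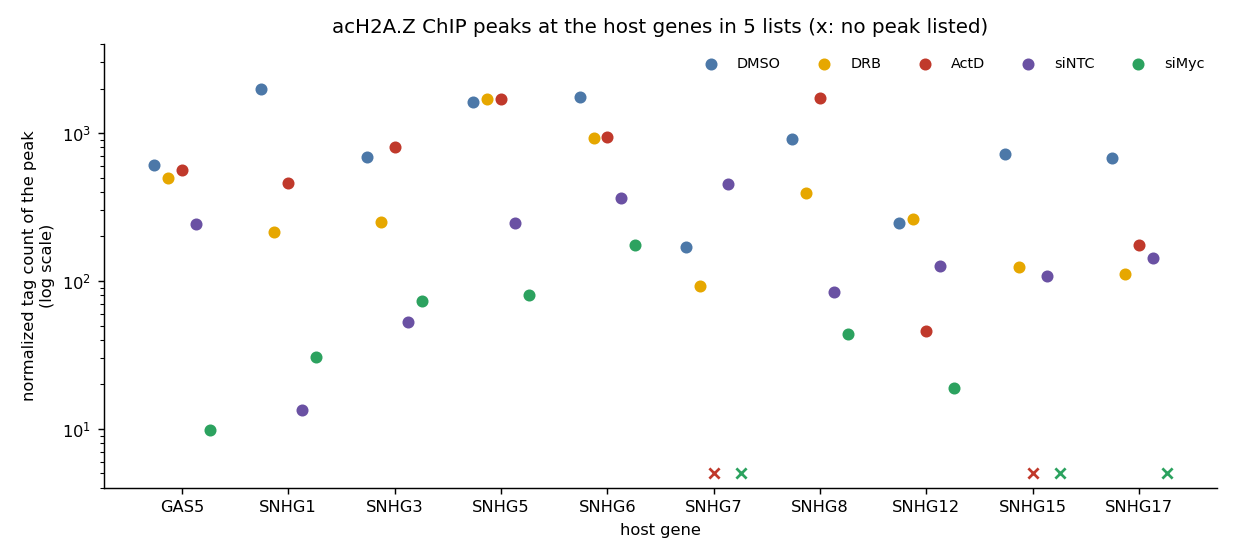
Normalized tag count of the acH2A.Z peak at each host gene, on a logarithmic axis, in 5 ChIP lists, with 1 point per list. A cross marks a list without a peak over the gene or within 1 kb. SNHG5 has nearly the same value in DMSO, DRB and ActD, 1610, 1700 and 1710. GAS5, SNHG1, SNHG6, SNHG15 and SNHG17 are highest in DMSO.

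Total H2A.Z, from the antibody that does not select the acetylated form, was listed at fewer hosts and in small peaks. It was found at 4 of 10 in DMSO (SNHG1, SNHG5, SNHG6 and SNHG17), 6 in DRB (GAS5, SNHG1, SNHG5, SNHG6, SNHG8 and SNHG17), 1 in ActD (SNHG17), 2 in siNTC (SNHG6 and SNHG8) and 5 in siMyc (SNHG1, SNHG3, SNHG6, SNHG8 and SNHG12). Among expressed genes the shares were 11.1%, 23.6%, 20.9%, 18.7% and 28.6%, and among all RefSeq genes 2.91%, 6.98%, 9.41%, 7.34% and 11.3%. Tag counts at the hosts were between 8 and 32 in these lists. SNHG17 had an H2A.Z peak over its start in DMSO, DRB and ActD, with 30.5, 14.6 and 8.55 tags. The median tag counts of these lists fell too, at 25.9, 16.9 and 6.57. The SNHG17 peak stood above 62.9%, 37.3% and 82.2% of the peaks of its list. The nascent RNA of SNHG17 was at 52.7, 11.6 and 3.31 CPM in the same order. At SNHG8 the H2A.Z peak lay upstream of the start in DRB, siNTC and siMyc, with its centre at -454, -448 and -539 bp from it.

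In RIP the 3 antibodies listed different hosts. H2A.Z RIP had 8 peaks at GAS5, SNHG1, SNHG3 and SNHG17, acH2A.Z RIP had 5 peaks at GAS5, SNHG6, SNHG8, SNHG12 and SNHG17, and Tip60 RIP had 9 peaks at SNHG3, SNHG7, SNHG15 and SNHG17. In each list the host count, 4, 5 and 4 of 10, was below the share of expressed genes with a peak, which was 68.1%, 81.0% and 84.2%. Over all RefSeq genes the shares were 37.2%, 58.2% and 56.9%. SNHG17 was the only host in all 3 lists, and SNHG5 was in none. SNHG17 is also the longest of the 10, which gives more room for a peak. The other hosts were between 1062 and 5145 bp long. The shares of expressed genes were not matched for length, so the lower host counts cannot be read as less bound RNA.

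Of the 8 H2A.Z RIP peaks, 5 lay over a snoRNA. The pair at SNHG3 lay over SNORA73A and SNORA73B, at chr1:28505967-28507519 and chr1:28508420-28509049, with tag counts of 59.1 and 71.7, above 99.9% and 99.96% of the list. A peak at SNHG1, chr11:62855016-62855951, lay over SNORD25, SNORD26 and SNORD27 with 20.2 tags, above 98.5% of the list. At GAS5 a peak of 5.16 tags lay over SNORD74, and at SNHG17 one of 12.0 tags lay over SNORA71D. The fold over control was 4.99 over SNORA73A and 4.3 over SNORA73B, near the lowest of the list, 4. For the snoRNA peaks at SNHG1, GAS5 and SNHG17 the fold was 9.19, 6.74 and 5.22. None of the 5 acH2A.Z RIP peaks lay over a snoRNA. Of the 9 Tip60 RIP peaks 2 did, over SNORA17B in SNHG7 with 9.32 tags and over SNORA71C in SNHG17 with 9.12. The share of all peaks of each list that lie over a snoRNA was not computed, so these counts do not set the antibodies apart. The hosts are dense in snoRNAs, with 11 in the 5145 bp of GAS5 and 9 in the 3908 bp of SNHG1. SNORA73A and SNORA73B were also, after SNORA24, the most abundant of these snoRNAs in untreated nascent RNA, and whether abundance alone gives such peaks was not tested. The library used as control for the RIP peaks is not given in the sources used here.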

How the data were processed

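The 10 host genes and the gene lists were chosen with earlier results of these data known. The 27 libraries were each the sole library of a group, with groups taken from titles and treatment labels. The 6 IgG libraries were not analysed here. The submitters' processing notes name STAR 2.5.2b, HOMER, cutadapt, Trim Galore and FastQC, with GRCh38 as the build. Neither quantifier nor annotation is given in the sources used here. The 8 gene tables list effective lengths and expected counts per the file headers, and the deposited expected counts were used. The 3 nascent tables of DMSO, DRB and ActD hold packed fields and were separated into the same columns. The 13 peak lists are HOMER output per the file headers, with a deposited normalized tag count, which is a signal value, a score, and a fold over control. In every deposited list the fold is at least 4. The deposited score ranked peaks within a list only. The headers name no control library, and the control was scaled to the immunoprecipitation in 3 lists (acH2A.Z siMyc and both siRNA lists of H2A.Z), in the other 10 the reverse.

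CPM was taken over genes not named MT-. Ratios are log2 of CPM plus 1, called at 2-fold, for genes averaging 1 CPM or more, with at least 20 counts. A floor of 3 counts equals 0.120 to 0.624 CPM. Intervals are exact 95% binomial intervals of rounded counts, and cover counting error only, since no molecular identifiers mark single molecules. There were no replicates and no tests. The functions were tested on simulated data.

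Peaks were assigned to genes by RefSeq positions (GRCh38.p14), over the gene or within 1 kb. Rows of snoRNAs with repeated names were matched by gene ID. Named genes are all 10 hosts, up to the 2 highest and 2 lowest of each list, snoRNAs with at least 20 counts, and the 5 genes nearest to the mean host profile among those with at least 100 counts. Of these 5, 1 is not reported here. Neighbouring genes and the reach of peaks were added after values were seen. Alternatives varied the scale, pseudocount, filter, fold, window and score limit. Python 3.11.15, numpy 2.4.6, pandas 2.3.3, scipy 1.17.1 and matplotlib 3.10.9 were used.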

Additional observations from a re-analysis of the deposited data

How the results depend on the processing

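Each group was 1 library, so no count has a replicate error, and depth limits SNHG7 in DRB (2 counts) and SNHG17 in ActD (18 counts). No paired analysis was possible because each group has 1 library. Of 121 alternative counts of hosts, 90 were within 1.5 times the count reported and 31 were not. Per effective length and the score limit on peak reach were chosen after seeing the data. The causes of these changes were not tested.

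The ActD counts of 6 higher and 1 lower, and the counts of ActD against DRB, stayed within 1.5 times under all alternatives. The count of 6 was 4, just at that limit, with CPM over all genes and per effective length. It was 8 after centring on the median gene. For DRB against DMSO, CPM over all genes gave 0 higher and 7 lower. Centring on the median gene, leaving out small RNA genes, or a 1.5-fold limit each gave 2 higher, and ratios per effective length gave 0 higher. For nascent against total RNA, 1 was lower at 1.5-fold and 0 were higher per effective length. For DMSO against untreated nascent RNA, 0 were higher and 7 lower both with CPM over all genes and after centring, and 0 and 8 without small RNA genes. A pseudocount of 0.5 gave 2 lower, a 1.5-fold limit 2 higher and 4 lower, and effective length 9 higher and 0 lower. One called ratio changed sign, SNHG7 in ActD against DMSO, at -0.50 per effective length.

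Limited to peaks that overlap the gene, 0 hosts had an H2A.Z peak in siNTC, 2 in siMyc and 3 an acH2A.Z RIP peak. Within 5 kb, 8 had an acH2A.Z RIP peak and 7 a Tip60 RIP peak. In the upper part of each list by score, 1 host had an H2A.Z peak in DMSO, 1 in siNTC, 3 an acH2A.Z peak in DMSO, 4 in ActD, and 1 a Tip60 RIP peak. The median host peak of acH2A.Z in DMSO stood above 82.1% of that list by tag count. With both lists so limited, the downstream reach was shorter in 1 of 1 host in DRB and in 0 of 2 in ActD.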
